A study of Mus musculus with 24 samples.

Results

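The genes described here were 6 epithelial keratins (*Krt7*, *Krt8*, *Krt18*, *Krt19*, *Krt20* and *Krt23*) and the 3 epithelial membrane protein genes *Emp1*, *Emp2* and *Emp3*, 9 of the 55487 genes counted. They were chosen by measured values together with family membership. *Krt20* and *Emp1* were selected on their rise in PAL against BSA, where they were among the largest rises, and the other 7 were added as members of the 2 families. Values of PAL against BSA are therefore given for these 9 genes as a description, with no test.

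The cells were AML-12, a line of murine hepatocytes, and RNA was measured by BRB-seq, a bulk method that tags each library with a barcode and reads transcripts from their 3′ ends. There were 24 libraries, 4 in each of 6 groups. The 2 groups without transfection were BSA, given the albumin carrier alone, and PAL, given palmitate at 0.25 mM, the fatty acid used to load hepatocytes with lipid. CON, BMAL1, CHREBP and BOTH cells received 0.25 mM palmitate and were transfected for 24 h with endoribonuclease-prepared small interfering RNA (esiRNA). The esiRNA of CON was directed against *Egfp*, a gene that mouse cells do not carry, at 200 nM, that of BMAL1 against the clock gene *Bmal1* at 100 nM, that of CHREBP against the carbohydrate-responsive factor *Chrebp* at 100 nM, and that of BOTH against the 2 genes at 200 nM in total. The single-target groups thus differed from CON in esiRNA dose as well as in target.

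Keratins form intermediate filaments as obligate pairs of a type I chain (*Krt18*, *Krt19*, *Krt20*, *Krt23*) and a type II chain (*Krt7*, *Krt8*). *Krt8* and *Krt18* are the pair of simple epithelia and of hepatocytes, *Krt7* and *Krt19* mark bile duct cells in liver, and *Krt20* is best known from intestinal and urothelial cells. *Emp1*, *Emp2* and *Emp3* encode small membrane proteins that cross the membrane 4 times and belong to the family of peripheral myelin protein 22.

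On GRCm38, *Krt7* (chr15:101411043-101430313, plus strand), *Krt8* (chr15:101996698-102004482, minus strand) and *Krt18* (chr15:102028180-102032027, plus strand) lay on the same chromosome, and 23.7 kb separated *Krt8* from *Krt18*. *Krt19* (chr11:100140810-100148665), *Krt20* (chr11:99428403-99438150) and *Krt23* (chr11:99477974-99493137) lay on the minus strand of the type I cluster, with 39.8 kb between *Krt20* and *Krt23*. *Emp1* (chr6:135362545-135383173, plus strand), *Emp2* (chr16:10281749-10313968, minus strand) and *Emp3* (chr7:45918023-45921404, minus strand) were on 3 chromosomes. All 9 are annotated as protein-coding. *Krt7* overlaps *Gm671* and *Krt8* overlaps *Gm36026* on the other strand, and since the use of strand in counting was not given in the sources used here, reads of these partners cannot be told apart.

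RefSeq promoter windows of GRCm38.p6, from 250 bases before to 50 bases after a transcript start, were matched for 8 of the 9 genes, in 10 windows. *Krt19* had no entry. The windows printed are 3, those of the genes with the largest rise under palmitate (*Krt20* and *Emp1*) and that of *Krt7*, which had the smallest *Padj* of the 9 genes after silencing. Each is written 5′ to 3′ on the strand of its gene, with matches to the searched motifs in capitals.
*Emp1*, chr6:135362681-135362980, plus strand: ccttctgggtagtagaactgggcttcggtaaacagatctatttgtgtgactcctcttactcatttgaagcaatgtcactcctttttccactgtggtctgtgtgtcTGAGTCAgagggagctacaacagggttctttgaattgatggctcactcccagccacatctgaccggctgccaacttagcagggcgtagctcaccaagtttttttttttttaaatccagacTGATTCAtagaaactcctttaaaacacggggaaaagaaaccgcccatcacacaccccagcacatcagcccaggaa
*Krt20*, chr11:99438104-99438403, minus strand: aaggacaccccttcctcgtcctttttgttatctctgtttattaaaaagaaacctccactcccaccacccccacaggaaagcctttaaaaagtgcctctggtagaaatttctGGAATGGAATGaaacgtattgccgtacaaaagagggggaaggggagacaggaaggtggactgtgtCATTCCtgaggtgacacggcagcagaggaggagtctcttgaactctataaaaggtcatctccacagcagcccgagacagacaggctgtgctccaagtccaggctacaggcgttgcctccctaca
*Krt7*, chr15:101412153-101412452, plus strand: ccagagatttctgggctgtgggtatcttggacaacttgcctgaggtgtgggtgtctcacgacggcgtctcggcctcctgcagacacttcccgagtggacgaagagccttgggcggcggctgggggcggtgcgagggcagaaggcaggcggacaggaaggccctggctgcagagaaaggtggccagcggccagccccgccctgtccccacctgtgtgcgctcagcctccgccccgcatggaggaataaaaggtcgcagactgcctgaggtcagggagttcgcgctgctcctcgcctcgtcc

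The 3 motifs, searched on both strands, were the AP-1 motif TGANTCA, the TEAD motif GGAATG and the E-box CACGTG, the core element bound by BMAL1 with its partner. The *Emp1* window held 2 AP-1 matches, starting 145 and 25 bases before the start site. At least 1 AP-1 match was present in 7.81% of 32851 windows of the same length, and 2 or more in 0.460%. The *Krt20* window held 3 TEAD matches, starting 139, 134 and 74 bases before the start site, and the first pair shared 1 base. At least 1 TEAD match was present in 14.7% of the windows and 3 or more in 0.131%. An E-box was found in 1 of the 10 windows, that of *Krt23*, 169 bases before its start site (chr11:99493071-99493370, minus strand), against 7.15% of all windows. The window of *Krt7* had no match, nor did those of *Krt8*, *Krt18*, *Emp2* and *Emp3* or the second window of *Emp1*. The cut-offs of 2 and 3 matches were the numbers found in windows of genes chosen on their rise under palmitate. The shares of all windows are therefore background and not a test. These matches describe letters in the windows and are not evidence of binding.

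Libraries held 5399700 to 11237474 counts in genes (median 7872956), so that 3 counts corresponded to 0.267 to 0.556 counts per 1000000 gene counts (CPM). Normalized counts are counts divided by the DESeq2 size factor of the library. Differences are log2 fold changes with their standard error (SE), and a gene was called when its DESeq2 Wald p, adjusted by Benjamini-Hochberg over all tested genes (*Padj*), was under 0.1. By the library names, the untransfected groups filled column 1, CON with BMAL1 column 2 and CHREBP with BOTH column 3. Rows A to D held BSA, CON and CHREBP, and rows E to H held the other 3 groups. Column and *Chrebp* esiRNA, and row and palmitate or *Bmal1* esiRNA, therefore cannot be told apart, nor can position and transfection in CON against PAL. CON and PAL differed in row and in column, as did BOTH and CON. Nothing says that the libraries of a group were separate cultures, so p-values measure only the spread between these libraries. Of the 14 hepatocyte markers, *Hnf4a* (143 to 189 CPM), *Trf* and *Ttr* were present in every library, whereas *Ahsg*, *Cps1* and *Cyp2e1* did not exceed 5 counts. The bile duct markers *Sox9* (199 to 308 CPM) and *Spp1* were also present, and *Epcam* did not exceed 2 counts. Markers of fibroblast or stellate cells summed to at most 3.68 CPM in a library and those of endothelial cells to at most 0.623, and among macrophage markers *Cd14* (68.7 to 122 CPM) was present while *Adgre1* and *Clec4f* were at 0. The target of the *Bmal1* esiRNA, listed as *Arntl*, had 44.7 ± 11.6 normalized counts in CON, 26.0 ± 4.82 in BMAL1 and 22.8 ± 6.64 in BOTH (SD over 4 libraries). That of the *Chrebp* esiRNA, listed as *Mlxipl*, had 35.6 ± 7.26 in CON, 25.9 ± 4.75 in CHREBP and 17.0 ± 4.91 in BOTH. Against CON, *Arntl* fell in BOTH (log2 fold change -0.98, SE 0.28, DESeq2 *Padj* = 0.00994). In BMAL1 its log2 fold change was -0.78 (SE 0.28), and DESeq2 gave no *Padj* for it. *Mlxipl* fell in BOTH (-1.07, SE 0.30, DESeq2 *Padj* = 0.00762) and was not called in CHREBP (-0.46, SE 0.28, DESeq2 *Padj* = 0.593). Its raw counts were low, at 25 to 54 per library in CON and 21 to 38 in CHREBP. The paper reported silencing of *Bmal1* and *Chrebp* in its transcriptome data and by quantitative polymerase chain reaction.

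*Krt18* and *Krt8* were the most abundant of the 9 transcripts, with means over the 24 libraries of 4086 and 1687 CPM. *Krt19* followed with 346 CPM, *Emp1* with 169.6, *Emp3* with 70.4, *Krt7* with 47.0, *Krt20* with 27.3 and *Emp2* with 22.7. Counts of 3′ ends do not scale with transcript length. When CPM were divided by exon length all the same, *Krt18* (2843 CPM per kb), *Krt8* (862) and *Krt19* (186) kept their places, *Emp3* (65.7) came before *Emp1* (28.6) and *Krt20* (14.1) before *Krt7* (6.67). *Krt23* had 9 counts in all, in 3 libraries. These were 4 counts in BSA replicate 1, 3 in CON replicate 1 and 2 in CON replicate 2, and the gene did not pass the filter on low counts, which left 8 of the 9 genes for the fits. Of 54 keratin genes counted, 27 had no count and 7 exceeded 3 counts in every library, which were *Krt7*, *Krt8*, *Krt18*, *Krt19*, *Krt20*, *Krt10* and *Krt80*.

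*Krt8* and *Krt18* together made up 92.3% to 94.9% of the counts of the 6 keratins in every library. The log2 ratio of *Krt8* to *Krt18* counts lay between -1.48 and -1.11 over the 24 libraries. BSA averaged -1.25 ± 0.11 and PAL -1.33 ± 0.10 (SD, n = 4). In the esiRNA groups it was -1.28 ± 0.03 for CON, -1.26 ± 0.05 for BMAL1, -1.26 ± 0.06 for CHREBP and -1.27 ± 0.14 for BOTH. The 2 chains of the pair thus stood in a similar count ratio in all groups, and the ranges of all 6 groups overlapped. Among the EMP genes the balance was less even. *Emp1* supplied 50.3% ± 3.57 of the EMP counts in BSA and 68.3% ± 0.377 in PAL. The shares were 67.6% ± 0.779 for CON, 63.8% ± 2.19 for BMAL1, 64.2% ± 3.22 for CHREBP and 66.4% ± 2.60 for BOTH.

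**Figure D1:**
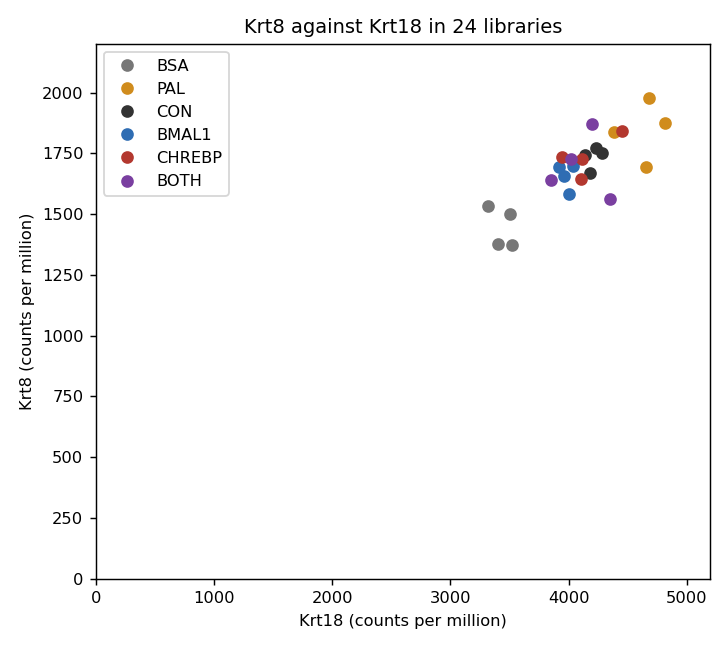
*Krt8* (y axis) against *Krt18* (x axis) in CPM, 1 point per library, coloured by group. The BSA libraries lie lowest on both axes, with 1373 to 1535 CPM of *Krt8* and 3314 to 3519 CPM of *Krt18*, and the points of the esiRNA groups mix.

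The first comparison asked how the 9 genes differed with palmitate. *Krt20* and *Emp1* stood at more than double the BSA level in PAL, the abundant keratins *Krt8*, *Krt18* and *Krt19* and *Emp3* stood 29.4% to 44.7% above it, and *Krt7* and *Emp2* stood near it. Normalized counts of *Krt20* in replicates 1 to 4 were 85.6, 125, 99.2 and 124 in BSA and 302, 352, 304 and 263 in PAL. The lowest PAL library was thus above double the highest BSA library. The fitted log2 fold change was 1.51 (SE 0.14), a fold of 2.85, and 99.5% of the 12827 tested genes had a lower value.

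*Emp1* had 586, 607, 744 and 587 normalized counts in BSA and 1645, 1556, 1769 and 1639 in PAL. BSA replicate 3 was the highest of its group, and all PAL libraries were far above it. The log2 fold change was 1.39 (SE 0.08), a fold of 2.62.

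*Krt18* had 25610.2, 26660.1, 24817 and 26877 normalized counts in BSA and 37278, 35654, 35589.8 and 33091 in PAL. Its partner *Krt8* had 10363, 11436, 11493 and 10488 in BSA and 14535, 12981, 15043 and 13868 in PAL. The groups did not overlap in either gene, and the log2 fold changes were 0.45 (SE 0.05) for *Krt18* and 0.37 (SE 0.06) for *Krt8*. *Krt19*, the small type I keratin of duct cells, had 2299.6, 2344, 1737 and 2180.0 normalized counts in BSA and 2991, 3195, 3332 and 2813 in PAL, with a log2 fold change of 0.53 (SE 0.08). BSA replicate 3 was the lowest *Krt19* library of the series, and the highest BSA library was still below the lowest PAL library. *Emp3* had 414, 406, 440.0 and 488 in BSA and 590.1, 553, 631 and 567 in PAL (log2 fold change 0.43, SE 0.09), again without overlap.

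*Krt7* overlapped between the groups (315 to 439 normalized counts in BSA, 362 to 395 in PAL), with a log2 fold change of 0.08 and a 95% interval of -0.13 to 0.29. *Emp2* did as well (165 to 211 in BSA, 176 to 184 in PAL), with -0.03 and an interval of -0.28 to 0.22. In all, 6 genes had every PAL library above every BSA library, beside 6.82% of all tested genes, and their share cannot be read as a result because the genes were chosen on this comparison. The median log2 fold change of the 8 fitted genes was 0.44, beside 0.00 over all tested genes. Over all genes 6.65% were called higher and 7.60% lower at DESeq2 *Padj* under 0.1. In PAL the summed hepatocyte markers (1376 to 1555 CPM, against 1797 to 2077 in BSA), bile duct markers (1637 to 1761, against 2166 to 2272) and macrophage or leukocyte markers (74.3 to 85.7, against 113 to 124) were lower without overlap, and their part in the keratin values was not tested. The largest contributors to these sums over the 24 libraries were *Trf* (657 to 1364 CPM), *Spp1* (1123 to 1765) and *Cd14* (68.7 to 122). A sum can thus follow 1 gene and is not a measure of the number of cells of a type. In bulk libraries fewer cells of a type and less RNA per cell cannot be told apart.

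**Figure D2:**
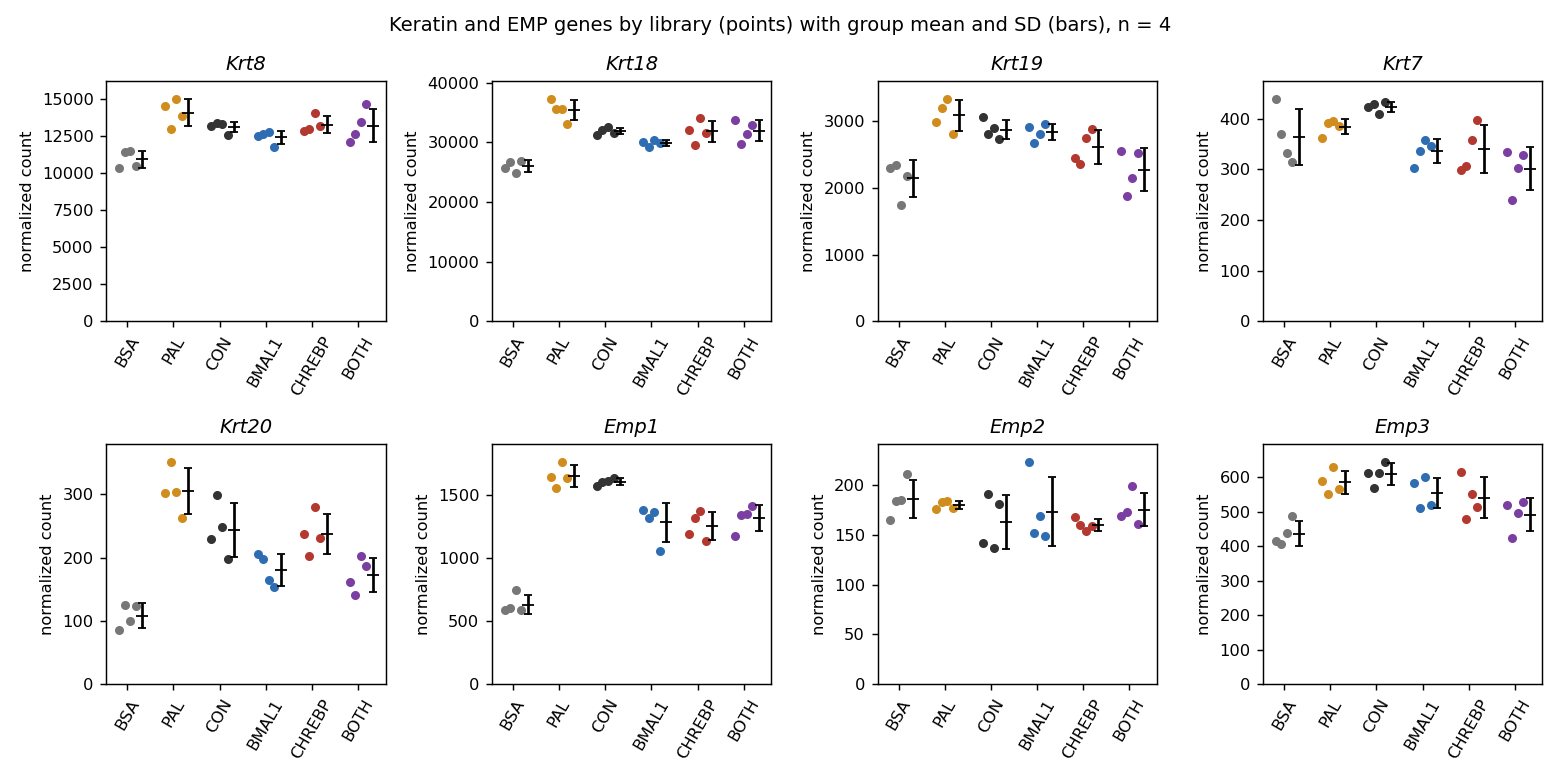
Normalized counts of the 8 genes that passed the filter, 1 point per library by group, with the group mean and SD (n = 4) as bars, each axis starting at 0. *Krt20* and *Emp1* are lowest in BSA (85.6 to 125 and 586 to 744) and highest in PAL, and *Krt8* and *Krt18* lie close together in the 4 esiRNA groups.

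**Figure D3:**
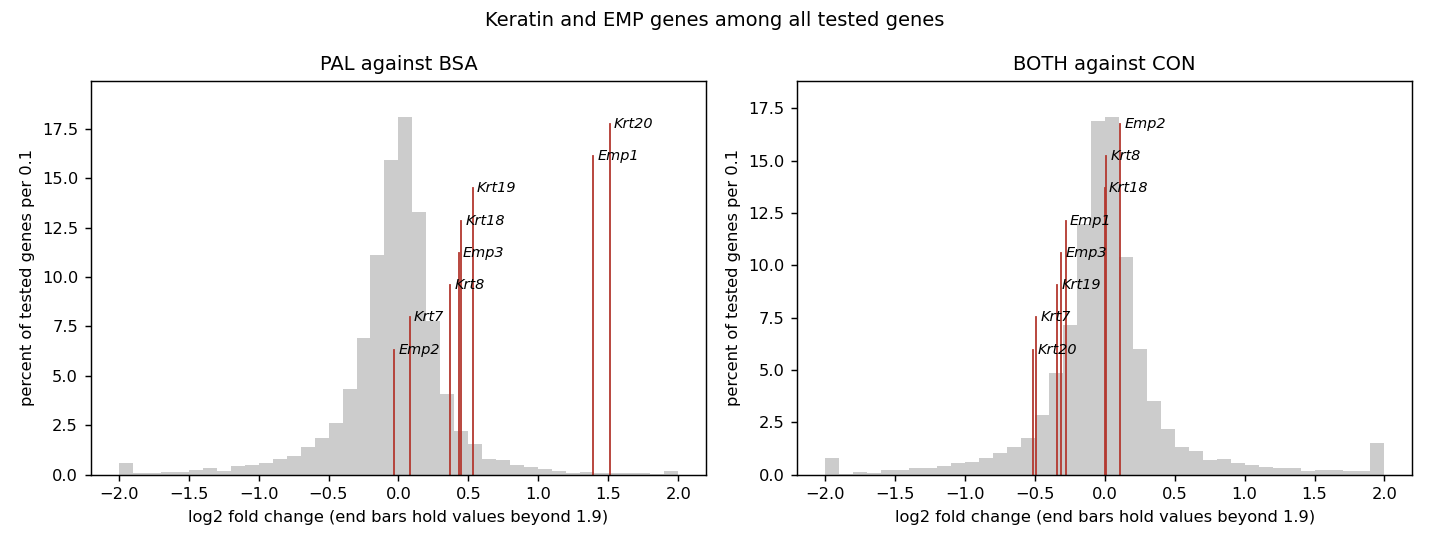
Distribution of log2 fold changes over all tested genes (grey bars, percent of genes per 0.1) for PAL against BSA and BOTH against CON, with red lines at the keratin and EMP genes. *Krt20* (1.51) and *Emp1* (1.39) lie in the right tail of the first panel, and *Krt20* (-0.51) and *Krt7* (-0.49) lie lowest of the 8 in the second.

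Other genes of the filament and membrane system moved in both directions with palmitate. Of 17 desmosome and keratin linker genes, all tested, 3 rose and 2 fell. *Perp*, a tetraspan protein of desmosomes, rose (log2 fold change 0.31, SE 0.06, DESeq2 *Padj* = 3.66e-05), as did *Plec*, which links keratins to hemidesmosomes (0.32, SE 0.09, DESeq2 *Padj* = 0.00601), while desmoplakin, *Dsp*, which anchors keratins at desmosomes, fell (-0.37, SE 0.07, DESeq2 *Padj* = 7.72e-06). Among 5 tested genes of other intermediate filaments, 3 rose and 1 fell, and *Vim* rose by little (0.14, SE 0.05, DESeq2 *Padj* = 0.0578). The junction genes gave 1 rise and 2 falls of 14 tested, including *F11r* (-0.24, SE 0.06, DESeq2 *Padj* = 0.00283). Of the 8 tested relatives and partners of the EMP proteins 2 rose and 2 fell, of the 9 tested bile duct genes 1 rose (*Tspan8*, another tetraspan membrane protein, 0.42, SE 0.09, DESeq2 *Padj* = 1.40e-04) and 1 fell (*Spp1*, -0.48, SE 0.05, DESeq2 *Padj* = 2.01e-17), and the 2 tested keratins outside the 6, *Krt10* and *Krt80*, were not called. Of 28 tested genes of epithelial wound, AP-1 and YAP responses, 13 rose and 6 fell. *Sprr1a*, a cornified envelope precursor (1.86, SE 0.34, DESeq2 *Padj* = 1.64e-06), *Areg*, a ligand of the epidermal growth factor receptor (1.56, SE 0.21, DESeq2 *Padj* = 3.95e-11), and *Fosl1*, a subunit of AP-1 (1.31, SE 0.16, DESeq2 *Padj* = 8.70e-15), rose most. These lists were chosen with results of these libraries known, and their counts are not independent evidence.

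Transfection was compared in CON against PAL. These PAL libraries also entered the comparison that chose *Krt20* and *Emp1*. *Krt18* was 31303, 32075, 32607 and 31557 normalized counts in CON, all below the lowest PAL library (33091), and it was the only one of the 8 genes called (log2 fold change -0.15, SE 0.05, DESeq2 *Padj* = 0.0386). The call was lost without PAL replicate 1 or 3 or any 1 CON library, with log2 fold changes between -0.18 and -0.13 over the 8 fits that left out 1 library. *Krt20* was called without CON replicate 2 (-0.44, DESeq2 *Padj* = 0.0691) and *Krt8* without PAL replicate 2 (-0.14, DESeq2 *Padj* = 0.0767). At an unadjusted DESeq2 p under 0.05 there were 3 such genes (*Krt18*, *Krt8* and *Krt20*), and edgeR called 1. Over all genes 1.59% were called higher and 0.920% lower. *Emp1* stayed at 1576 to 1638 in CON, beside 1556 to 1769 in PAL (-0.04, 95% interval -0.15 to 0.07). All 9 tested interferon genes rose in CON against PAL, and the sum of 10 interferon genes was 117 CPM in CON replicate 1 and 485 to 984 in the others, against 35.6 to 42.2 in PAL. Its part in the *Krt18* value was not tested.

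The 3 comparisons with CON asked what silencing *Bmal1*, *Chrebp* or the pair changed among these genes. They share the 4 CON libraries and so are not independent. *Emp1* was called lower than CON in all 3 silenced groups, *Krt7* in CHREBP and BOTH, and *Krt19*, *Krt20* and *Emp3* in BOTH. A missing call is not a missing difference. In BMAL1, *Krt7* (-0.33) and *Krt20* (-0.45) were not called, with values of like size to -0.32 for *Krt7* in CHREBP and -0.51 for *Krt20* in BOTH. *Krt8* and *Krt18* were called in none of the 3.

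*Emp1* had 1576, 1605, 1617 and 1638 normalized counts in CON. The silenced libraries had 1386, 1322, 1371 and 1060.0 (BMAL1), 1196, 1324, 1379 and 1139.7 (CHREBP) and 1176, 1346, 1354 and 1416 (BOTH). Every silenced library was below every CON library, and the silenced groups overlapped each other. In BMAL1 the log2 fold change was -0.33 (SE 0.09, DESeq2 *Padj* = 0.0486). That call was lost without CON replicate 2, 3 or 4 or BMAL1 replicate 2 or 4, where log2 fold changes over all 8 such fits ran from -0.36 to -0.24, and with edgeR (*Padj* = 0.253). In CHREBP it was -0.35 (SE 0.09, DESeq2 *Padj* = 0.00231) and in BOTH -0.28 (SE 0.09, DESeq2 *Padj* = 0.0162). All silenced groups stood above the BSA range of 586 to 744.

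*Krt7*, the type II keratin of duct and other simple epithelia, had 422, 428, 409 and 432 normalized counts in CON, a narrow range. The silenced libraries had 303, 336, 358 and 346 (BMAL1), 299, 306, 357 and 398 (CHREBP) and 334, 240.4, 303 and 328 (BOTH). No silenced library reached the CON range. The log2 fold changes were -0.49 in BOTH (SE 0.11, DESeq2 *Padj* = 2.81e-04) and -0.32 in CHREBP (SE 0.11, DESeq2 *Padj* = 0.0989). The CHREBP call was lost with edgeR (*Padj* = 0.165), with TMM library sizes and with no filter, and without any 1 of the CON or CHREBP libraries except CHREBP replicate 4 (log2 fold changes from -0.40 to -0.26). In BMAL1 the value was of like size but not called (-0.33, SE 0.11, DESeq2 *Padj* = 0.207).

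*Krt19* had 3059, 2801, 2891 and 2726 normalized counts in CON. The silenced libraries had 2915, 2668, 2813 and 2949 (BMAL1), 2451, 2353, 2750.0 and 2887 (CHREBP) and 2546, 1878, 2145 and 2518 (BOTH). The BOTH libraries were below all CON and all BMAL1 libraries. It fell in BOTH against CON (-0.34, SE 0.09, DESeq2 *Padj* = 0.00318) and against BMAL1 (-0.32, SE 0.09, DESeq2 *Padj* = 0.00590), and was not called in CHREBP (-0.14, SE 0.09, DESeq2 *Padj* = 0.621) or BMAL1 (-0.02, 95% interval -0.19 to 0.16).

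*Krt20* had 229, 299, 248 and 198 normalized counts in CON. The silenced libraries had 206, 198, 165 and 153 (BMAL1), 237, 202, 279.9 and 231 (CHREBP) and 162, 141, 202 and 186 (BOTH). BMAL1 and BOTH lay lower, but each reached the lowest CON library. It fell in BOTH (-0.51, SE 0.15, DESeq2 *Padj* = 0.0120), and without CON replicate 2 the value was -0.39 (DESeq2 *Padj* = 0.118). In BMAL1 it was -0.45 (SE 0.15, DESeq2 *Padj* = 0.205), and in CHREBP -0.04 (95% interval -0.33 to 0.24).

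*Emp3* had 612, 569.8, 614 and 646 normalized counts in CON and 519, 423, 497 and 528 in BOTH, without overlap. It fell in BOTH (-0.31, SE 0.09, DESeq2 *Padj* = 0.0158). BMAL1 (512 to 600.4) and CHREBP (478 to 617) lay between and overlapped CON. *Emp2* overlapped CON in all 3 groups (CON 137 to 191, BMAL1 149 to 224, CHREBP 154 to 168, BOTH 161 to 199.8).

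For *Krt8* the BOTH value was 0.01 (95% interval -0.11 to 0.12) and for *Krt18* it was 0.00 (-0.10 to 0.10). In BMAL1 the values were -0.08 (-0.19 to 0.04) for *Krt8* and -0.09 (-0.20 to 0.01) for *Krt18*, whose libraries did not overlap CON (29290.1 to 30447, against 31303 to 32607). The most abundant pair was thus not among the genes that fell.

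By comparison, 1 of the 8 genes fell in BMAL1 (edgeR called 0, and 3 had an unadjusted DESeq2 p under 0.05), beside 0.166% of all genes called higher and 0.324% lower. In CHREBP 2 fell (edgeR called 1), beside 2.65% higher and 0.771% lower. In BOTH 5 fell and none rose (edgeR called 5), beside 5.99% higher and 3.75% lower. The median log2 fold change of the 8 genes was -0.12 for BMAL1, -0.09 for CHREBP and -0.30 for BOTH, and over all genes it was between -0.01 and 0.00. The 10 interferon genes summed to 117 to 984 CPM for CON, 129 to 204 for BMAL1, 3087 to 6307 for CHREBP and 5954 to 10093 for BOTH. All 10 rose in CHREBP and in BOTH and 6 fell in BMAL1. The summed hepatocyte markers were 1486 to 1589.8 CPM for CON, 1563 to 1689 for BMAL1, 1308 to 1455 for CHREBP and 1266 to 1434 for BOTH, so that CHREBP and BOTH lay below CON without overlap. The summed bile duct markers were 1621 to 1691 CPM for CON, 1722 to 1848 for BMAL1, 1652 to 1803 for CHREBP and 1626 to 1724 for BOTH. The part of these 3 sums in the keratin and EMP values was not tested.

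**Figure D4:**
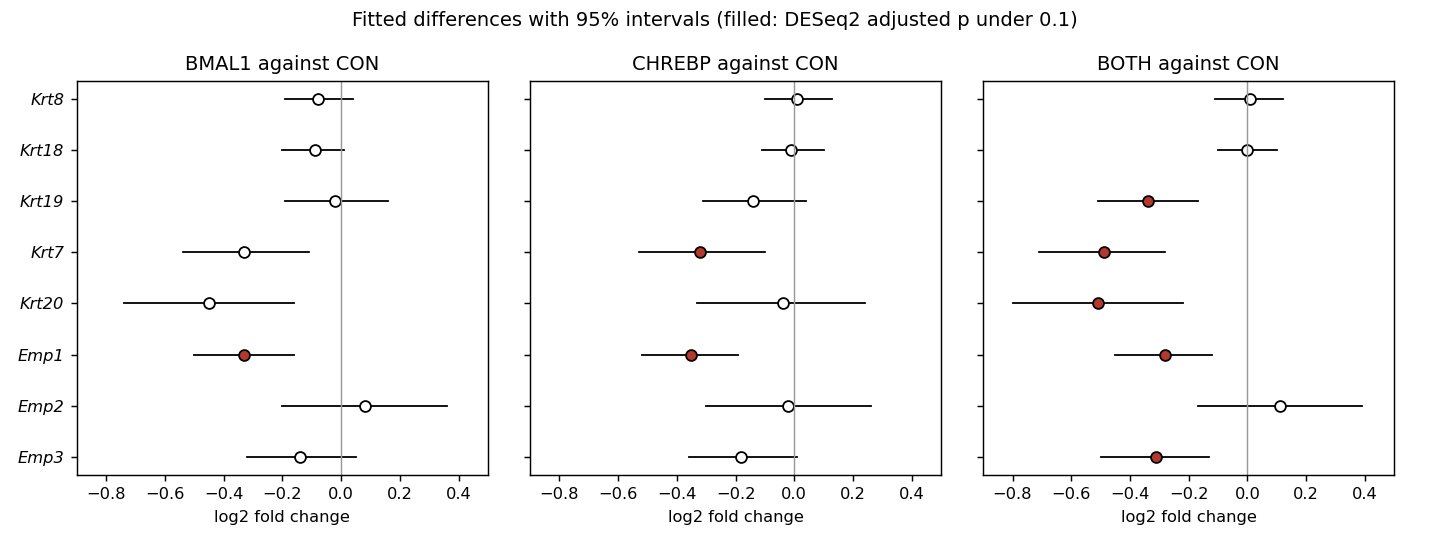
Log2 fold change against CON (x axis) with 95% intervals for the 8 genes in BMAL1, CHREBP and BOTH, filled where DESeq2 *Padj* was under 0.1. Filled points number 1, 2 and 5, all left of 0, and *Krt8* and *Krt18* sit at 0.01 and 0.00 in BOTH.

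BOTH was then compared with each single silencing. Against CHREBP none of the 8 genes was called (edgeR called 0, and 2 had an unadjusted DESeq2 p under 0.05), beside 0.843% of all genes called higher and 0.151% lower. *Krt20* had the largest difference, with all BOTH libraries (141 to 202) at or below the lowest CHREBP library (202) and no overlap before rounding (-0.46, SE 0.15, DESeq2 *Padj* = 0.120), and it was called without CHREBP replicate 2 (-0.54, DESeq2 *Padj* = 0.0940), BOTH replicate 3 (-0.55, DESeq2 *Padj* = 0.0814) or BOTH replicate 4 (-0.50, DESeq2 *Padj* = 0.0674). Against BMAL1 1 gene fell, *Krt19*, beside 6.35% of all genes called higher and 4.08% lower. *Krt20* was similar in BOTH and BMAL1 (-0.06, 95% interval -0.36 to 0.24), and *Krt7* was -0.16 (-0.39 to 0.06).

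The interaction asked whether the difference between groups with and without *Bmal1* esiRNA varied with *Chrebp* esiRNA. Of the 8 genes 1 was called, *Emp1*, beside 1.20% of all genes called with a positive and 0.267% with a negative interaction. The difference was -0.33 without *Chrebp* esiRNA (BMAL1 against CON) and 0.07 with it (BOTH against CHREBP), an interaction of 0.40 (SE 0.12, 95% interval 0.16 to 0.64, DESeq2 *Padj* = 0.0685). The call was lost with edgeR, which called 0 of the 8 genes, and without any 1 CON library, BMAL1 replicate 2 or 4, CHREBP replicate 1 or 4, or BOTH replicate 2 or 3. The interaction was 0.31 to 0.45 over those 16 fits. On the log2 scale the fall in BOTH was smaller than the sum of the falls in BMAL1 and CHREBP. CON and BOTH received 200 nM of esiRNA in total and the single-target groups 100 nM, so that dose and the interaction cannot be told apart. Of the 10 tested interferon genes 9 were called with a positive interaction and 0 with a negative. Of the 29 tested wound, AP-1 and YAP genes 1 was called, *Areg* (1.23, SE 0.26, DESeq2 *Padj* = 0.00137). Their part in the *Emp1* value was not tested. The interaction of *Krt7* was 0.15 (-0.16 to 0.46), that of *Krt19* was -0.18 (-0.43 to 0.06), and that of *Krt20* was -0.02 (-0.43 to 0.40).

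Related genes showed mixed directions after silencing. *Krt80*, a type II keratin, had 43.6 ± 4.58 normalized counts in CON and 22.8 ± 6.34 in BOTH and fell (-0.94, SE 0.27, DESeq2 *Padj* = 0.00872), 1 of the 2 tested keratins outside the 6. Against BMAL1 both were lower in BOTH, *Krt80* by -0.79 (SE 0.27, DESeq2 *Padj* = 0.0434) and *Krt10* by -0.67 (SE 0.25, DESeq2 *Padj* = 0.0762). Of the 16 tested desmosome and linker genes, *Dsg2*, a desmosomal cadherin, rose in BOTH (0.27, SE 0.09, DESeq2 *Padj* = 0.0282) and *Perp* fell (-0.22, SE 0.07, DESeq2 *Padj* = 0.0330), and none was called in BMAL1 or CHREBP. Of the 8 tested EMP relatives and partners, the kinase gene *Src* rose in BOTH (0.25, SE 0.08, DESeq2 *Padj* = 0.0327) and the integrin gene *Itgb1* fell (-0.24, SE 0.07, DESeq2 *Padj* = 0.0177). Of 14 tested junction genes 1 rose and 3 fell in BOTH, with *F11r*, a tight junction adhesion molecule, up (0.50, SE 0.07, DESeq2 *Padj* = 8.54e-12) and *Cldn2* down (-0.34, SE 0.09, DESeq2 *Padj* = 0.00312). *Tspan8* of the bile duct list fell in CHREBP (-0.51, SE 0.10, DESeq2 *Padj* = 8.13e-05) and BOTH (-0.59, SE 0.11, DESeq2 *Padj* = 1.19e-06). *Lmnb1*, a nuclear lamin, was the 1 called of 6 tested genes of other intermediate filaments (-0.68, SE 0.20, DESeq2 *Padj* = 0.0149). Of 29 wound, AP-1 and YAP genes, 10 rose and 3 fell in BOTH, and *Atf3* rose most (0.90, SE 0.13, DESeq2 *Padj* = 5.62e-10). In BMAL1 1 rose and 2 fell, among them *Areg* (-0.68, SE 0.19, DESeq2 *Padj* = 0.0596), and in CHREBP 6 rose and none fell.

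Across the 6 groups, the order of mean *Emp1* levels was PAL, CON, BOTH, BMAL1, CHREBP and BSA. PAL overlapped CON, BOTH, BMAL1 and CHREBP overlapped in turn, and gaps without overlap lay below CON and above BSA. For *Krt20* the order was PAL, CON, CHREBP, BMAL1, BOTH and BSA, and only BSA was separated from its neighbour. For *Krt7* CON was highest and separate from PAL, and all other neighbours overlapped. *Krt8* and *Krt18* were highest in PAL and lowest in BSA, and only BSA was separated from its neighbour. For *Krt19*, *Emp2* and *Emp3* every neighbour overlapped.

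Likeness between genes was measured as the root mean square difference of 6 group means of log2(normalized count + 1), each gene centred on its own mean, over 9372 genes whose normalized counts averaged 50 or more. Among the 5 genes nearest *Emp1* were *Fosl1* (0.130), the transporter gene *Slc4a11* (0.175), *Fam83d* (0.177) and *Wincr1* (0.184). Among the 5 nearest *Krt20* were *Slc4a11* (0.215), *Fosl1* (0.224), *Entr1* (0.234) and *Abcb1a* (0.235). *Krt20* and *Emp1* differed from each other by 0.200, so each was the nearest of the other 7 members to its counterpart. *Fosl1* rose from 85.0 normalized counts in BSA to 212 in PAL and stayed at 186 to 203 in the esiRNA groups. This likeness describes 6 group means from the libraries that chose the genes.

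**Figure D5:**
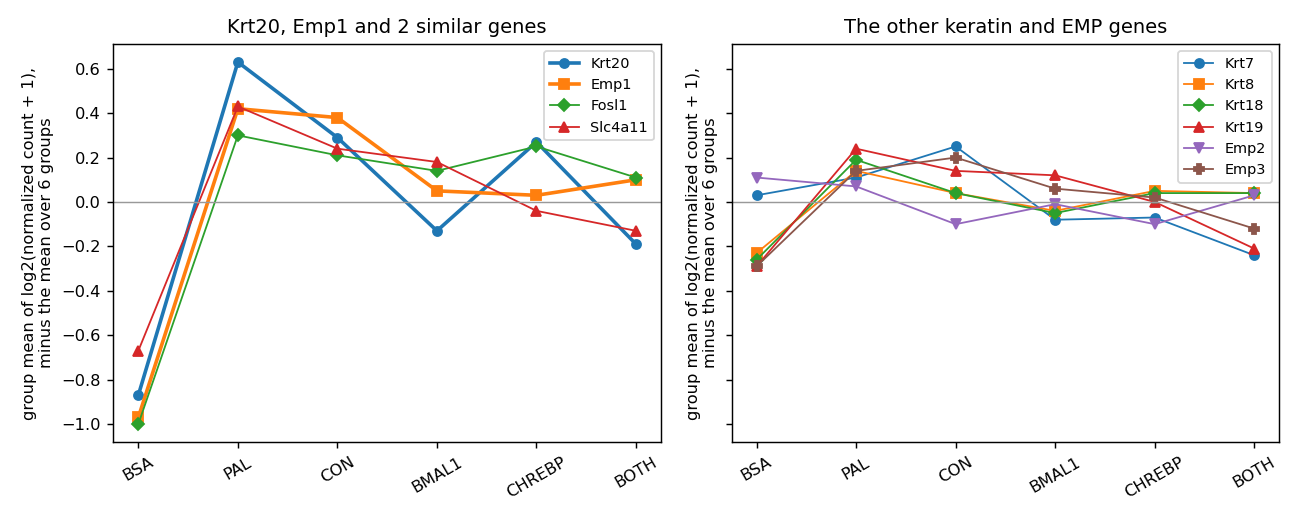
Group means of log2(normalized count + 1), centred on the mean over 6 groups, for *Krt20*, *Emp1* and 2 genes near both (left) and for the other 6 measured members (right). The left profiles are lowest in BSA, at -0.67 for *Slc4a11* and below that for the other 3 genes, and *Krt20* is highest in PAL (0.63), and the right profiles stay between -0.29 and 0.25.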

How the data were processed

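The deposited values were raw counts per Ensembl gene. The authors demultiplexed BRB-seq reads, aligned them to mm10 with STAR and counted them with HTSeq, with featureCounts also named in the submitters' processing notes. Versions, annotation release, strand setting and the use of molecular identifiers are not given in the sources used here. The 95% intervals were computed from the DESeq2 SE, which includes the dispersion between libraries. The 5 HTSeq summary lines held 30.0% to 33.5% of the reads of a library and were left out. Symbols were those of the table, and coordinates came from GENCODE M21 (GRCm38), which held 55141 of 55487 identifiers.

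The 9 genes and all gene lists were chosen with earlier results of these data known. Genes whose counts summed to 25 or more in a fit were tested with the DESeq2 1.42.0 Wald test in R 4.3.3, and called at a Benjamini-Hochberg adjusted p (*Padj*) under 0.1 over all tested genes. PAL with BSA and CON with PAL were fitted as 8 libraries each, and the 16 esiRNA libraries together. Groups came from the sample labels. Normalized counts used DESeq2 size factors of all 24 libraries. The scripts were tested on simulated data. Alternatives were edgeR 4.0.16, other library sizes, other filters, other sets of fitted libraries, a replicate block and leaving out each library.

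Besides the 9 genes and the 2 targets, the text names, per list and comparison, genes from the up to 3 called ones with the largest change among those averaging 20 or more normalized counts, and the genes among the 5 nearest *Krt20* and *Emp1*. Some genes that this rule or the marker lists name are not reported here. Each of the 36 replicate pairs differed by more than sampling noise (chi-square per degree of freedom 2.74 to 24.7). In no comparison did the shared deviation of libraries with the same replicate number exceed 0.1 in all 4 pairs. The numbers were therefore not used to pair libraries. In BOTH against CON the 4 pairs were all positive (0.023 to 0.22).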

Additional observations from a re-analysis of the deposited data

Results flagged for a closer look

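*Emp1* in BSA replicate 3 stood apart from its group, with 744 normalized counts where the other 3 BSA libraries had 586 to 607, so that the gap made up 0.864 of the range of the group. It was the 1 value flagged of 48 checks of a gene in a group, and chance flags about 1 in 20.

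The difference in *Emp1* between groups with and without *Bmal1* esiRNA was not the same with and without *Chrebp* esiRNA. The interaction was 0.40 on the log2 scale (SE 0.12, DESeq2 *Padj* = 0.0685), from -0.33 without to 0.07 with *Chrebp* esiRNA, and edgeR gave *Padj* = 0.169. The total esiRNA dose was 200 nM in CON and BOTH and 100 nM in BMAL1 and CHREBP, so that dose and this interaction cannot be told apart.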

How the results depend on the processing

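Of 888 refitted values of the 8 genes in the tested comparisons, 811 kept direction and side of the threshold, 35 turned sign, 34 lost and 8 gained a call, where a value that prints as 0.00 was given no direction (*Krt18* in BOTH against CON, -0.03 to 0.03 without 1 library, and the interaction of *Emp3*, -0.05 to 0.07). Of 112 refitted values of PAL against BSA, described without a test, 1 turned sign (*Emp2*, 0.02 without BSA replicate 4). With edgeR the count of called genes was 0 in BMAL1 against CON, 1 in CHREBP against CON and 0 for the interaction. CHREBP against CON also gave 1 with TMM library sizes and with no filter on low counts. Fitting only the 2 groups gave 3 in BMAL1 against CON (*Emp1*, *Krt20* and *Krt7*), and all 24 libraries together gave 1 in BOTH against CHREBP (*Krt20*). With a replicate block the counts were 1 (CON against PAL), 1 (BMAL1), 2 (CHREBP) and 5 (BOTH) against CON, 0 (BOTH against CHREBP), 1 (BOTH against BMAL1) and 1 (interaction), so it changed no count. Leaving out each library gave counts of 0 to 2 for CON against PAL, and against CON 0 to 1 for BMAL1, 1 to 2 for CHREBP and 4 to 5 for BOTH, 0 to 1 in BOTH against CHREBP, 1 to 1 in BOTH against BMAL1 and 0 to 1 for the interaction. The causes were not tested. In the tested comparisons the 35 turned signs came from fits without 1 library, all in uncalled values near 0. In BMAL1 against CON these were *Krt19* (-0.04 to 0.01) and *Emp2* (-0.06 to 0.18). In CHREBP against CON they were *Krt8* (-0.01 to 0.03), *Krt18* (-0.04 to 0.03), *Krt20* (-0.14 to 0.07) and *Emp2* (-0.10 to 0.07), and in BOTH against CON *Krt8* (-0.05 to 0.05). In BOTH against CHREBP they were *Krt8* (-0.06 to 0.03) and *Krt18* (-0.03 to 0.04), in BOTH against BMAL1 *Krt20* (-0.14 to 0.03), *Emp1* (-0.04 to 0.09) and *Emp2* (-0.04 to 0.16), and for the interaction *Krt20* (-0.14 to 0.08) and *Emp2* (-0.05 to 0.19). Depth limits *Krt23*, at no more than 4 counts per library.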
